A study of Caenorhabditis elegans with 2 samples.

Results

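The proteasome subunit genes of Caenorhabditis elegans were examined for peaks of a tagged nuclear hormone receptor, NHR-42, at their promoters. The set comprised the 33 protein-coding genes of Ensembl release 115 whose symbol begins with pas-, pbs-, rpt- or rpn-, of 19973 protein-coding genes in all. It held 14 core particle genes (7 pas and 7 pbs) and 19 regulatory particle genes (6 rpt and 13 rpn). The data came from chromatin immunoprecipitation followed by sequencing on whole L4 larvae, aged 50 h, grown from larvae arrested by starvation at the L1 stage. All animals were of strain OP351, which carries the transgene wgIs351, with nhr-42 fused to TY1, EGFP and 3xFLAG tags and with a wild-type copy of unc-119, in an unc-119(tm4063) mutant background. The labels describe an immunoprecipitation with an anti-GFP antibody, and give 2 biological replicates of this 1 group. No conditions were thus compared. In whole animals, binding in a few cells and weak binding in many cells cannot be told apart. Untagged animals and input DNA were not analysed here, so no matched background was set beside the authors' values.

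The proteasome degrades proteins marked with ubiquitin. Its core particle is a barrel of alpha rings (pas genes), which gate the entrance, and beta rings (pbs genes), some of whose subunits are the proteases. The regulatory particle caps the barrel. Its RPT subunits form a ring of ATPases that unfolds substrates, and its RPN subunits form scaffolds, receptors for ubiquitin and the deubiquitinating enzyme RPN-11. In C. elegans the transcription factor SKN-1 is known to raise expression of subunit genes when proteasome function is impaired. Nuclear hormone receptors are transcription factors, many of them regulated by ligands, and the experiment addressed where in the genome the tagged NHR-42 is found.

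Promoter peaks past the authors' threshold were found at 4 of the 33 genes (12.1%, exact Clopper-Pearson 95% interval 3.40 to 28.2%), namely the core particle genes pbs-1 and pbs-5 and the regulatory particle genes rpn-3 and rpn-11. Among all protein-coding genes the share was 4.43% (884 of 19973). A gene was counted when any of its annotated 5′ ends had a peak's summit, its highest point, no more than 1000 bp upstream or 200 bp downstream. Peaks were taken from the conservative series list of 1627 peaks, which was made from both replicates. Its threshold is a score of 830, a scaled irreproducible discovery rate (IDR) of 0.01. No test of the set was made, and the intervals cover counting error over genes only. The remaining 29 genes had no summit past the threshold in this window.

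The sequence under 3 of these 4 summits is given on the strand of the gene, with that of rpn-9 as the strongest subthreshold summit, by score, that lay in no annotated gene and on a chromosome shown here. Positions are in build ce11 (WBcel235). Each run covers up to 75 bp on either side of the summit, which is base 76, and the rpn-11 run ends at the last base before the gene. Capitals mark matches to any of 6 motifs searched on both strands: the SKN-1 cores TGTCAT and, in its other form, TATCAT, the nuclear receptor site AGGTCA, the heat shock element GAANNTTC, the GATA factor site TGATAA and the E-box CACGTG.
pbs-1, chrIV:1709851-1710001, minus strand: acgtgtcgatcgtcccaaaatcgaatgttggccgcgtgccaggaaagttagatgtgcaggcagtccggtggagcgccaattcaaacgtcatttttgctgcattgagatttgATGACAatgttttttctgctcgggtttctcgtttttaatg
rpn-3, chrIII:8447042-8447192, plus strand: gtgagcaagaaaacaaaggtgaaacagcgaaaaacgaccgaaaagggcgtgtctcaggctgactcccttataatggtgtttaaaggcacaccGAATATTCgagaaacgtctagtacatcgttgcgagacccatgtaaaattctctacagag
rpn-11, chrII:4044547-4044635, minus strand: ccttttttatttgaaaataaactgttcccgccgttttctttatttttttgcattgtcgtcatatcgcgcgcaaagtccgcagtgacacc
rpn-9, chrII:11239057-11239207, minus strand: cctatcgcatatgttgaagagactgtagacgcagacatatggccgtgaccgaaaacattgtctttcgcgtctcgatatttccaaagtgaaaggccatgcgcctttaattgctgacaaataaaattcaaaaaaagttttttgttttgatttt
The pbs-1 run held 1 TGTCAT match, read here as its reverse complement, and the rpn-3 run 1 GAANNTTC match. The rpn-11 and rpn-9 runs held none of the 6 motifs. All 151 bases of the pbs-1 run lie between genes. The rpn-3 run overlaps C30C11.14, a non-coding RNA gene at positions 8447043 to 8447095. Every 24-mer within 75 bp of the 4 summits past the threshold occurs once in the genome, whereas 23% of conservative promoter peaks hold some repeated sequence.

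In the core particle, pbs-1 (WBGene00003947) and pbs-5 (WBGene00003951) encode beta subunits whose yeast and human counterparts are proteolytically active, with caspase-like and chymotrypsin-like specificity. The pbs-1 peak spanned positions 1709776 to 1710075 of IV, with its summit 181 bp upstream of the 5′ end. Its signal, the authors' own value without a stated unit, was 78.8 in the series list, and the ranked lists gave 43.9 in replicate 1 and 34.3 in replicate 2 at that place. Its score of 861 corresponds to an IDR of 0.00844 in the series list. Scores in the replicates' own lists were 550 and 204, both under the threshold. The replicate summits lay 180 and 182 bp upstream, so the position differed by 2 bp. The same summit was 339 bp upstream of K08D12.3, the gene on the other strand, and could not be assigned to pbs-1 alone.

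The pbs-5 peak, at positions 14720191 to 14720490 of I, had its summit 136 bp downstream of the 5′ end, in an exon of pbs-5. No other protein-coding promoter window held it. The signal was 88.0 in the series list, 39.7 in replicate 1 and 50.0 in replicate 2. Its series score was at the cap of 1000, an IDR of at most 0.00391. The replicate scores were 58 and 536, so replicate 1 by itself ranked this peak far below its threshold. Because the summit lies inside the gene, this gene was not counted with a narrower window from 500 bp upstream to 100 bp downstream.

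In the regulatory particle, rpn-3 (WBGene00004460), a lid subunit gene, had the strongest promoter peak of the 33 genes. The peak lay at positions 8446967 to 8447266 of III with its summit 236 bp upstream of the 5′ end. Its signal was 118 in the series list, 79.7 in replicate 1 and 39.9 in replicate 2. Replicate 1 called it (score 1000) and replicate 2 did not (score 383). The summit was 208 bp upstream of hsp-110, the divergent neighbour, which encodes a chaperone of the HSP110 family. With each peak given to the nearest 5′ end only, it went to hsp-110 and not to rpn-3.

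The rpn-11 gene (WBGene00004467) encodes the metalloprotease that removes ubiquitin chains from substrates. Its peak, at positions 4044410 to 4044709 of II, had the summit 14 bp upstream of the nearest 5′ end. The signal was 95.6 in the series list, 39.2 in replicate 1 and 66.6 in replicate 2. Here replicate 2 called the peak (score 1000) and replicate 1 did not (score 628), the reverse of rpn-3. The replicate summits lay 13 and 54 bp upstream, and no other protein-coding promoter window held the series summit.

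None of the 33 genes was past the threshold in both replicates' own lists. In the replicate 1 list rpn-3 alone was called, 1 of 33 (3.03%) against 3.10% of all protein-coding genes. In the replicate 2 list rpn-11 alone was called, again 1 of 33, against 2.11%. The other series list called the same 4 genes as the conservative list, 12.1% against 4.87% of all genes. The share of subunit genes called was thus near the background in each replicate alone and above it in the lists made from both replicates.

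**Figure D1:**
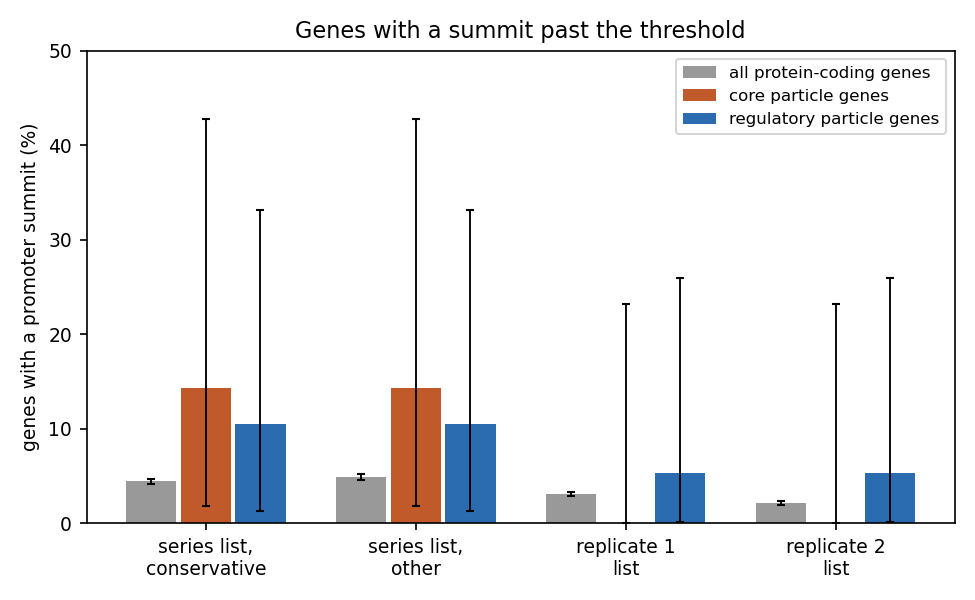
Percentage of genes with a promoter summit past the authors' threshold (vertical axis) in each of the 4 thresholded lists, for all 19973 protein-coding genes, the 14 core and the 19 regulatory particle genes. Bars are shares and error bars exact 95% intervals. The intervals of the particles overlap each other in every list, and in the replicate lists the core particle share is 0%.

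Core and regulatory particle genes were called at similar counts. In the conservative list these were 2 of 14 core genes (14.3%, exact 95% interval 1.78 to 42.8%) and 2 of 19 regulatory genes (10.5%, 1.30 to 33.1%). By gene class the 4 were all pbs or rpn genes, with 2 of 7 and 2 of 13. No pas gene (0 of 7, upper limit 41.0%) and no rpt gene (0 of 6, upper limit 45.9%) was called. With so few genes, these limits do not exclude a share several times the 4.43% of all genes. In the replicate lists the core particle had no called gene (0 of 14, upper limit 23.2%) and the regulatory particle had 1 of 19 in each.

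Of the 4 peaks, only that of rpn-3 had a signal above the median of conservative promoter peaks. Of the 742 conservative peaks in any promoter window, with a median signal of 104, 60.4% had a lower signal than rpn-3. The corresponding shares were 40.0% for rpn-11, 30.9% for pbs-5 and 17.4% for pbs-1. In the whole conservative list their ranks by signal were 510, 831, 1013 and 1280 of 1627. With the 814 strongest peaks alone, rpn-3 was the only subunit gene left, 1 of 33 (3.03%) against 2.87% of all protein-coding genes.

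Below the threshold, nearly every subunit gene had some weak peak at its promoter. In the ranked series list of 105959 peaks, which holds peaks down to a score of 45, 32 of the 33 genes had a summit in the window (97.0%), against 74.1% of all protein-coding genes. The exception was pas-2, an alpha subunit gene, with no ranked summit in the window in any of the 4 ranked lists. In the replicates' ranked lists the shares were 87.9% against 58.5% in replicate 1 and 84.8% against 62.2% in replicate 2. In the other series ranked list, 30 of the 33 had one, 90.9% against 74.5%, with pas-3 and rpn-7 lacking one as well. In the ranked series list the median gene had 2 such summits among subunit genes and 1 among all genes. The windows were not longer for subunit genes, with a mean of 1314 bp against 1459 bp over all genes and a median of 1201 bp in both. Between the particles the mean window differed, at 1201 bp in core genes and 1398 bp in regulatory genes.

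The best-scoring promoter peak per gene was also stronger in the typical subunit gene than in the typical gene. Its median score was 270 over the 32 subunit genes (quartiles 204 and 414) and 147 over the 14797 genes with a ranked summit (quartiles 91.0 and 275). With genes lacking a ranked summit set to 0, the medians were 266 and 108. Of the 33 genes, 29 (87.9%) lay above that median of 108, as did 49.7% of all genes. The signal of the best peak had a median of 42.7 against 32.3 over genes with a ranked summit, and of 42.6 against 25.4 with the others set to 0. A score of 540, an IDR of about 0.05, was reached by 6 of 33 genes (18.2%) and by 8.21% of all genes, the further genes being rpt-5 and rpn-1. These are descriptions of lists made from the same 2 replicates, with no test. Over genes with a ranked summit, the median best score was 62.0 against 54.0 in replicate 1 alone and 70.0 against 58.0 in replicate 2 alone. With genes lacking a ranked summit set to 0, it was 58.0 against 19.0 in replicate 1 and 61.0 against 21.0 in replicate 2, so the size of the difference in the replicates depended on how those genes were treated.

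**Figure D2:**
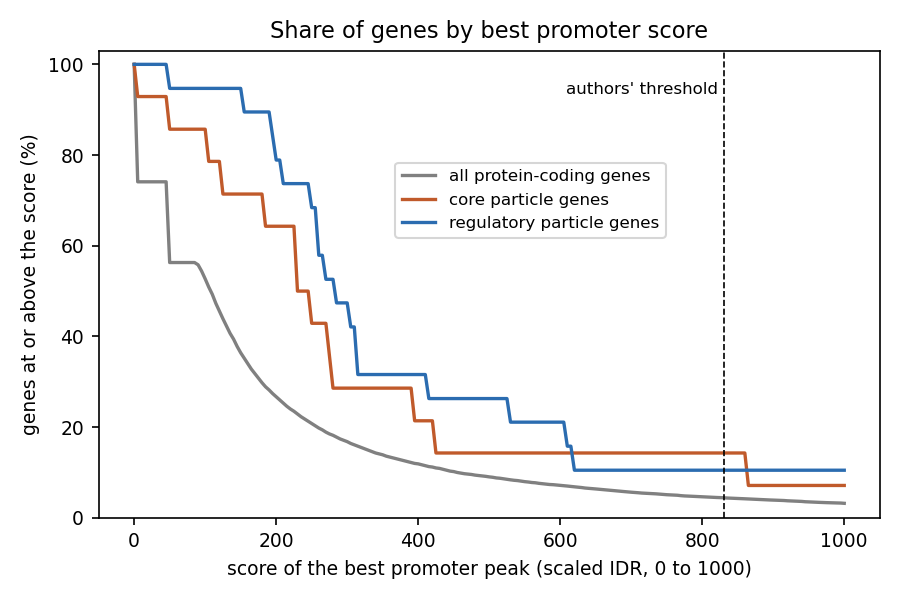
Percentage of genes (vertical axis) whose best promoter peak in the ranked series list reaches a given score (horizontal axis, scaled IDR from 0 to 1000), with genes without a ranked summit set to 0. Regulatory particle genes (median 281) and core particle genes (median 237) both lie above all protein-coding genes (median 108) over most of the range, and the dashed line is the authors' threshold of 830.

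Within the core particle the median best score in the ranked series list was higher for the beta genes than for the alpha genes, although single genes overlapped. The median was 390 over the 7 pbs genes and 182 over the 7 pas genes with pas-2 set to 0. The median signals were 55.3 and 25.4 on the same basis. Over genes with a ranked summit, the median best scores of pbs and pas genes were 60.0 and 53.0 in replicate 1. In replicate 2 they were 98.0 and 57.0. After pbs-5 and pbs-1, the highest beta genes were pbs-6 (signal 56.7, score 422) and pbs-2 (55.3, score 390), whose product corresponds to the trypsin-like subunit of yeast and human. The pbs-6 peak reached 21.9 in replicate 1 and 32.8 in replicate 2, with its summit 45 bp upstream of the 5′ end and 308 bp upstream of the divergent gene cids-1. The pbs-2 peak reached 24.1 and 26, with its summit in an exon of pbs-2 and 775 bp upstream of eif-6. The remaining beta genes, pbs-3, pbs-4 and pbs-7, had signals of 36.9, 18.5 and 42.7. Their scores of 248, 123 and 225 were below those of the alpha genes pas-5 (273) and pas-6 (277).

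Among the alpha genes pas-5 had the highest signal (44.5, score 273) and pas-6 the highest score (277, signal 38.9), followed by pas-4 (35.1, score 226). The signals of pas-7, pas-1 and pas-3 were 25.4, 18.7 and 10.7, all under the median of 32.3 over the 14797 genes with a ranked summit. With the other genes set to 0 that median was 25.4, the same as the signal of pas-7. For pas-1 and pas-3 neither replicate had a ranked peak over the series summit.

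Among the regulatory genes, the ATPase gene rpt-5 came closest to the threshold, with a score of 619 (IDR 0.0323) and a signal of 64.6. Its replicate signals were 34.5 and 29.4, with summits 620 and 618 bp upstream. That position is 11 bp inside rad-8, a gene on the other strand, whose 5′ end was much nearer than that of rpt-5. The next was rpn-1, a scaffold subunit gene, with a score of 609 (IDR 0.0341) and a signal of 74.0. It reached 33.9 in replicate 1 and 29.2 in replicate 2, and its summit, 956 bp upstream, lay in an intron of ribo-1. The peak of replicate 2 had its own summit 1011 bp upstream, outside the window. The lid gene rpn-9 had a score of 528, a signal of 62.1, and 31.3 and 27.4 in the replicates. Its summit was 213 bp upstream, in no annotated gene, and 465 bp upstream of T06D8.9. The lid gene rpn-8 scored 411 (signal 44.3, with 23.9 and 27.4 in the replicates), with its summit inside mrps-6. Of these 4 subthreshold peaks, only that of rpn-9 was nearer to the subunit gene than to another protein-coding 5′ end.

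The other 5 ATPase genes had best scores of 154 to 311. Of these, rpt-6 had a peak of score 154 with a signal of only 3.15, and a further peak of signal 29.9 and score 124 that lay 709 bp upstream. In the lid, rpn-12 had a signal of 57.5 (score 259), of which replicate 1 showed no ranked peak at that place and replicate 2 showed 32.4. Its summit lay 802 bp upstream, in an exon of rad-23, which encodes a shuttle that brings ubiquitinated proteins to the proteasome. The ubiquitin receptor genes rpn-10 and rpn-13 had signals of 39.7 and 42.6, and the scaffold gene rpn-2 had 42.4. The paralogues rpn-6.1 and rpn-6.2 had 38.4 and 43.2. The lowest best score of the regulatory particle was 45, at rpn-7 (signal 23.2), and rpn-5 had a score of 190 (signal 23.8).

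**Figure D3:**
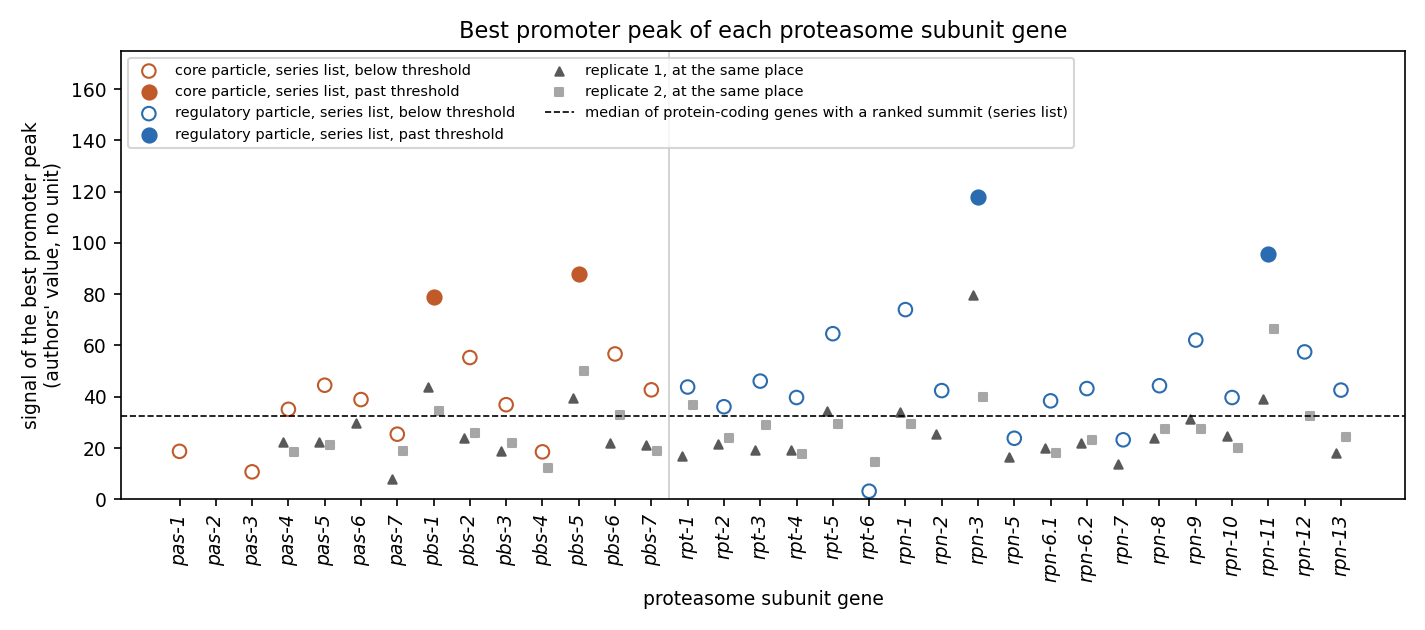
Signal (vertical axis, the authors' value without a unit) of the best-scoring promoter peak of each of the 33 genes in the ranked series list (circles, filled where past the threshold) and of the strongest ranked peak of each replicate over the same summit (triangles and squares). The dashed line is the median of 32.3 over the 14797 protein-coding genes with a ranked summit. The 4 filled circles lie between 78.8 and 118, pas-2 has no point, and series signals are higher than replicate signals at nearly all genes, with rpt-6 an exception.

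Neither replicate gave generally higher signals at these promoters, although single genes differed. Of the 32 best series summits, 23 lay within a ranked peak of both replicates, 4 of replicate 1 only, 3 of replicate 2 only and 2 of neither. Over the 23 genes the signal was higher in replicate 1 at 11 and in replicate 2 at 12, with a median ratio of replicate 2 to replicate 1 of 1.04. At single genes the ratio ranged from 0.501 at rpn-3 to 2.37 at pas-7. The median distance between the replicates' summits was 11.0 bp, and 15 of the 23 pairs were within 25 bp. Since the best series peaks were scored on both replicates, this overlap is no independent check of the replicates.

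The 4 summits past the threshold lay between 236 bp upstream and 136 bp downstream of the 5′ end. Such positions were common among called genes. In the window from 500 bp upstream to 100 bp downstream, 635 of the 884 called protein-coding genes remained, as did 3 of the 4 subunit genes. The 62 ranked summits in the promoter windows of the set were spread over the window, with 33 of them more than 300 bp upstream. Of the 32 best summits, 24 were upstream and 8 downstream of the nearest 5′ end of the gene. The window itself reaches 1000 bp upstream and only 200 bp downstream, and this split was not counted over all genes. They lay inside the subunit gene itself in 9 cases, inside another protein-coding gene in 11 and in no protein-coding gene in 12. In 15 of the 32 cases the summit also fell in the promoter window of another protein-coding gene, so these weak peaks often had more than 1 candidate gene. Among conservative promoter peaks of any gene, 26.3% were shared in this way, and 2 of the 4 at subunit genes were (pbs-1 and rpn-3). The 26.3% is counted per peak and the subunit figures per gene, which meets shared peaks more often, so they are not directly comparable. Sharing of the best ranked summits was not counted over all genes.

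**Figure D4:**
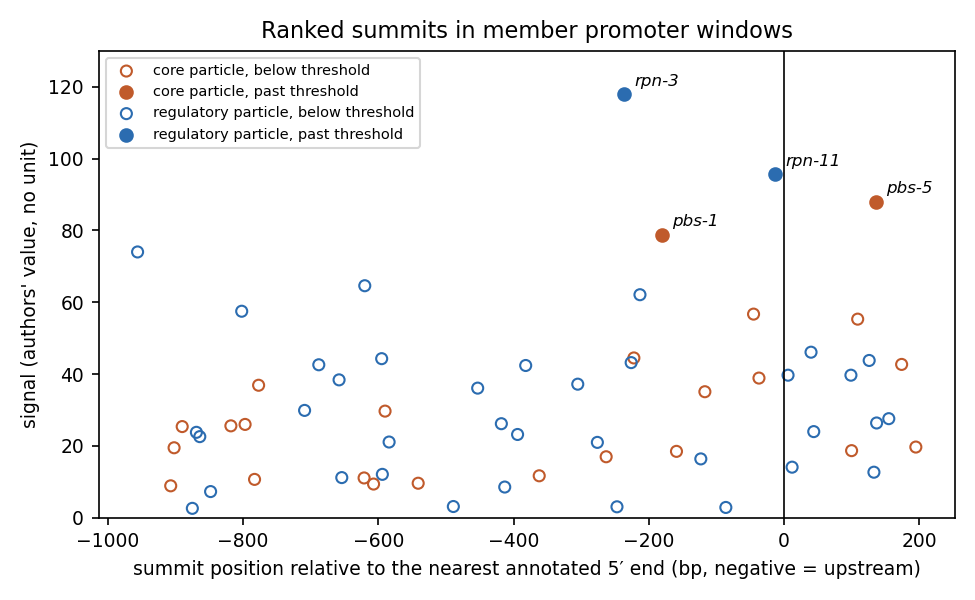
Position of the 62 ranked series summits in the promoter windows of the subunit genes (horizontal axis, bp from the nearest annotated 5′ end, negative upstream) against their signal (vertical axis, the authors' value without a unit). The 4 filled points past the threshold lie between 236 bp upstream and 136 bp downstream, and the other summits are spread over the whole window.

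Further conservative peaks lay near subunit genes but outside the promoter window. In all, 13 of the 33 genes (39.4%) had a conservative summit within the gene or within 5000 bp of it, against 17.3% of all protein-coding genes, although the median gene length was 1490 bp in the set and 2027 bp overall. Only 1 of these peaks lay in a gene body outside the window, at rpn-8 on I, with its summit 716 bp downstream of the 5′ end (positions 4175885 to 4176184, signal 90.8, score 1000). RPN-8 is the lid subunit that pairs with RPN-11. The gene had 4 further peaks within 5000 bp on either side, with signals of 79.2 to 338. A peak 1094 bp upstream of pas-5 had a signal of 162, and a peak 1452 bp upstream of rpt-2 a signal of 82.1. With a window from 2000 bp upstream to 500 bp downstream, which is wider than that used above, pas-5 and rpt-2 were therefore counted, giving 7 of 33 genes (21.2%) against 6.32% of all genes, but rpn-8 entered through a peak 1232 bp upstream (79.2). The strongest peak in the neighbourhood was 3514 bp upstream of rpn-11 (signal 630).

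The subunit genes were unevenly spread over the genome. They numbered 10 on I, 7 on II, 8 on III, 3 on IV and 5 on V, and none lay on X, which holds 13.7% of protein-coding genes. With autosomal genes alone as the background, the share of genes called was 4.35%, close to that over all genes. Of the 14 core particle genes, 7 were on I.

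Summit sequence at the called subunit genes had a GC content like that of other promoter peaks. Within 50 bp of the summit the median was 49% at the 4 called genes, 48.5% over the 742 conservative promoter peaks and 39.6% over 27561 ranked promoter summits below the threshold. Over the 32 best ranked summits of the set it was 40.1%. The promoters themselves, from 250 bp before to 50 bp after the outermost 5′ end, did not stand apart, with a median of 34.3% GC both in the 33 subunit genes and over all genes.

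Motif matches differed by motif. Within 50 bp of the summit, TGTCAT was present at rpn-11 and pbs-1, 2 of 4 called genes, and in 3.10% of all conservative promoter peaks. At rpn-11 the match lay downstream of the 5′ end, outside the run shown. GAANNTTC was present at pbs-5 and rpn-3, against 4.45%. The other motifs were present at none of the 4. Among conservative promoter peaks, TATCAT was present in 3.37%, the receptor site in 2.16%, the GATA site in 5.39% and the E-box in 3.77%. In the 300 bp promoters TGTCAT was found in 12 of 33 subunit genes (36.4%) and in 16.3% of all genes, with nearly equal shares of core (5 of 14) and regulatory (7 of 19) genes. The other SKN-1 core, TATCAT, went the other way, with 4 of 33 (12.1%) against 19.4%, all 4 of them regulatory. The receptor site AGGTCA was found in 2 of 33 promoters (6.06%, against 8.27%), those of rpn-11 and rpn-6.2. The remaining shares were 15.2% against 18.5% for the heat shock element, 30.3% against 30.2% for the GATA site and 3.03% against 5.82% for the E-box. A match describes letters only, and no factor other than the tagged receptor was measured.

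Genes that work with the proteasome were called in 5 of 29 cases (17.2%, exact 95% interval 5.85 to 35.8%), against 4.43% of all genes, with no test. The list held proteasome-associated factors, shuttles, CDC-48 and its cofactors, ubiquitin genes, regulators of subunit genes and the related COP9 signalosome. The called genes were cdc-48.1 (signal 557), the segregase ATPase, ecps-1 (172), a proteasome adaptor of the Ecm29 family, ubql-1 (157), a ubiquilin shuttle, usp-14 (138), a deubiquitinase of the regulatory particle, and uba-1 (86.8), the ubiquitin-activating enzyme. Their signals in the replicates were 279 and 277 at cdc-48.1, 96.1 and 71.4 at ecps-1, 93.5 and 67.4 at ubql-1, 67.4 and 65.5 at usp-14, and 33.7 and 46.2 at uba-1. Of these 5 genes all but uba-1 had a stronger series signal than any subunit gene. The peaks at usp-14, ecps-1 and ubql-1 also fell in the promoter windows of vnut-1, atx-2 and pdi-3. None of the 6 csn genes of the signalosome was called (upper limit 45.9%), nor were the 4 regulators skn-1, png-1, sel-1 and sel-11 (upper limit 60.2%). These are too few genes to set their shares apart from the 4.43% of all genes. At skn-1 the best peak had a score of 727 and a signal of 73.7 (27.8 and 45.6 in the replicates), under the threshold in the conservative list and past it in the other series list. The same held for ubq-2 (score 754, signal 85.1). At png-1 the score was 758, past the threshold in neither list.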

How the data were processed

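Per the labels and the descriptions that accompany the files, the deposited data are 8 lists of peaks in ce11 coordinates, a thresholded and a longer ranked list for each of 2 replicates and 2 of each kind made from both. Each peak carries the authors' score, a scaled IDR capped at 1000, and the authors' signal value, without a stated unit. In the deposited ranked lists the authors also give −log10 of the global IDR, to which the scores correspond. For the aligner and peak caller, the name is not given in the sources used here. Read depth is unknown, since the lists hold no counts of reads. Chromatin fragments were 200 to 800 bp long, per the labels.

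Genes and 5′ ends were those of Ensembl release 115, and sequence was read from the RefSeq genome of the same build, WBcel235. Where windows of several genes held 1 summit, each gene was counted. In each ranked list the best peak of a gene was that with the highest score, then the highest signal. The signal of a replicate at a series summit is that of its strongest ranked peak covering it. The 33 genes, the partner list, the motifs and the alternatives were chosen with earlier results of these data known, and no test of the set was made. Named in full were genes called in any thresholded list and the 6 next by score. On simulated peaks the counting recovered 200 of 200 planted genes. Python 3.11.15 was used with numpy 2.4.6, pandas 2.3.3, scipy 1.17.1 and matplotlib 3.10.9.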

Additional observations from a re-analysis of the deposited data

How the results depend on the processing

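The 13 alternatives gave between 1 and 7 called subunit genes, against 4 as reported. Counts within 1.5 times of 4 came from the other series list, a score of 1000 only, ranked peaks with a score of 540 or more, the narrower window, the outermost 5′ end, the nearest 5′ end, overlap of the peak with the window and peaks without repeated sequence. Restriction to genes with a ranked summit could not change the count, because the ranked list holds every conservative peak. There the share was 4 of 32 (12.5%) against 5.97% of all genes with a ranked summit. With the nearest 5′ end the count stayed at 4, but rpn-8 took the place of rpn-3. A single replicate gave 1 of 33 genes (3.03%) in either case, against 3.10% of all genes in replicate 1 and 2.11% in replicate 2. That was 0 core and 1 regulatory genes each time, so the count rests on the combined lists. The 814 strongest peaks gave 1 gene (0 core, 1 regulatory), 3.03% against 2.87% of all genes. The wider window gave 7 (4 regulatory), 21.2% against 6.32%. Core particle genes fell to 1 (7.14%) with a score of 1000 only, against 3.20% of all genes. They also fell to 1 with the narrower window, against 3.18% of all genes. Regulatory genes rose to 4 (21.1%) with a score of 540 or more, where partner genes numbered 10 (34.5%) in place of 5. The share of all genes rose there too, from 4.43% to 8.21%. Fewer or more peaks and positions are admitted by construction in each case. The settings applied to the partner genes, and autosomal genes as the background, were added after the data were seen. Of 12 settings each, rpn-3 and rpn-11 were called in 10 and pbs-1 and pbs-5 in 8. These tallies include settings that could not lose a called gene, namely the score of 540 or more, the wider window and peak overlap. No paired analysis was possible because the samples form 1 group. Precision is limited by the 33 genes and the 2 replicates, and depth is unknown.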
